A study of Mus musculus with 8 samples.

Results

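The genes described here are 31 genes of cholesterol synthesis, of its control by the sterol regulatory element binding proteins (SREBPs) and of sterol traffic, chosen by name and found by Ensembl identifier through their GENCODE symbols. All 31 were among the 54532 genes of the deposited count table, and all 31 passed the filter on low counts that left 17291 genes for testing. By role they were 5 control genes, 18 synthesis enzymes, 5 genes of sterol traffic and storage, and 3 genes of the liver X receptor (LXR) arm.

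As background, SREBP2 (Srebf2) is the transcription factor that turns on cholesterol synthesis when membrane sterol is low, and SREBP1 (Srebf1) turns on fatty acid synthesis. Both are held in the endoplasmic reticulum by the escort protein SCAP and the INSIG anchors, and reach the nucleus after cleavage in the Golgi, so that their activity is set after transcription as well as by their mRNA level. Oxysterols activate the LXRs, which turn on export of cholesterol and limit its uptake. Microglia, the macrophages of the central nervous system, engulf lipid-rich myelin and so handle sterol that they take up as well as sterol that they make.

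RNA was sequenced from spinal cord microglia of 8 female mice, 4 wild type (WT 503, 504, 506 and 527) and 4 with the genotype label Cd11b-P2X4mCherryIN KI (KI 513, 526, 528 and 549), with 1 library per mouse. The labels name no age, treatment or batch, and they do not say what the Cd11b in the genotype name stands for. The cells were sorted as living, CD11b positive, CD45 low and Ly6C negative. The question was whether these genes differed between the groups, and whether the enzymes moved with Srebf2.

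The libraries held 45167483 to 54049801 reads on genes. With reads taken as independent, a count of 0 allows a level of up to 0.0555 to 0.0664 CPM (counts scaled to library size), the level of 3 reads. Both reads of a pair may count, so the true bound may be higher. P2rx4, which encodes the ATP-gated channel P2X4 named in the genotype, was at 793 ± 43.5 CPM in WT against 859 ± 62.7 in KI (SD, n = 4 each), with overlapping groups. Summed over 7 microglial markers, levels were 27030 to 31398 CPM in WT and 25414 to 29108 in KI. Among these, Csf1r was at 2866 ± 242 CPM in WT against 2250 ± 232 in KI (SD, n = 4 each), without overlap. Its log2 fold change was −0.35, with an adjusted p of 0.507 from the edgeR quasi-likelihood test and of 0.0486 from DESeq2. Summed markers of other cells overlapped between the groups: 8 oligodendrocyte and myelin genes lay between 153 and 292 CPM, 7 astrocyte genes between 321 and 397, and 5 genes each of endothelium, neurons, border macrophages and monocytes between 0.333 and 52.6. Most of the astrocyte sum was the single gene Slc1a3, at a mean of 331 CPM in WT and 340 in KI. Most of the endothelial sum was Pecam1, at 41.0 and 41.5 CPM. No marker was at 0 over all libraries, and the part of other cells in the levels below was not tested.

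In the knock-in microglia the mRNA of the transcription factor Srebf2 stood at 0.701 times its WT level. Of the 18 synthesis enzymes, 16 had ranges that overlapped those of WT and did not reach an unadjusted p of 0.05. This does not show that they were unchanged, since for some of them the interval included the fold change of Srebf2. Together with Srebf2, only Npc1, which moves cholesterol out of lysosomes, and the enzyme Hsd17b7 had every KI library below every WT library. Npc2, the partner of Npc1, had every KI library above every WT library. With edgeR's quasi-likelihood test none of the 31 genes passed an adjusted p of 0.05, as was the case for 0% of the 17291 genes tested. At an unadjusted p under 0.05, which 7.79% of all genes reached, there were 4 of the 31 (Srebf2, Npc1, Ebp and Hsd17b7). DESeq2 called 1 of the 31, Srebf2, where it called 250 of 19374 genes, or 1.29%. The likelihood ratio test of edgeR, limma-voom and limma on FPKM values called none of the 31. Log2 fold changes of KI over WT were below 0 for 22 of the 31 and above 0 for 9, with a median of −0.06, beside a median of 0.00 over all genes tested, of which 49.9% were below 0. Groups that did not overlap, with KI lower, made up 3 of the 31 beside 2.60% of all genes, and with KI higher 1 of the 31 beside 2.34%.

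Srebf2 (chr15:82147181-82205379, plus strand, mm10) was at 18.1 CPM in WT 503, 21.7 in WT 504, 21.4 in WT 506 and 18.1 in WT 527, and at 13.1 in KI 513, 14.3 in KI 526, 13.3 in KI 528 and 14.9 in KI 549. The groups did not overlap, and the KI libraries lay closer together than the WT libraries. Its mean was 19.8 ± 2.02 CPM in WT against 13.9 ± 0.854 in KI (SD, n = 4 each), a log2 fold change of −0.51 (95% interval −0.81 to −0.22, SE 0.134). The edgeR quasi-likelihood p was 0.00312 and the adjusted p 0.507. DESeq2 gave an adjusted p of 0.00113 for the same fold change, and leaving out 1 library at a time moved the edgeR log2 fold change between −0.56 and −0.47. In sorted bulk RNA, fewer cells of a type and less of an RNA per cell cannot be told apart.

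The exons of Srebf2 are 57.8% G and C, and the libraries differed in how counts followed GC content. Genes of 40 to 45% GC had a median log2 fold change of 0.07 and genes of 55 to 60% GC one of −0.10, and of the latter 62.6% were below 0. With the GC trend of each library removed, the edgeR log2 fold change of Srebf2 was −0.40 (unadjusted p = 0.0153 from the edgeR quasi-likelihood test, adjusted p = 0.631). DESeq2 with the same correction, tried after the data had been seen, gave −0.39 and an adjusted p of 0.227, so that the call was lost while the direction stayed.

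**Figure D1:**
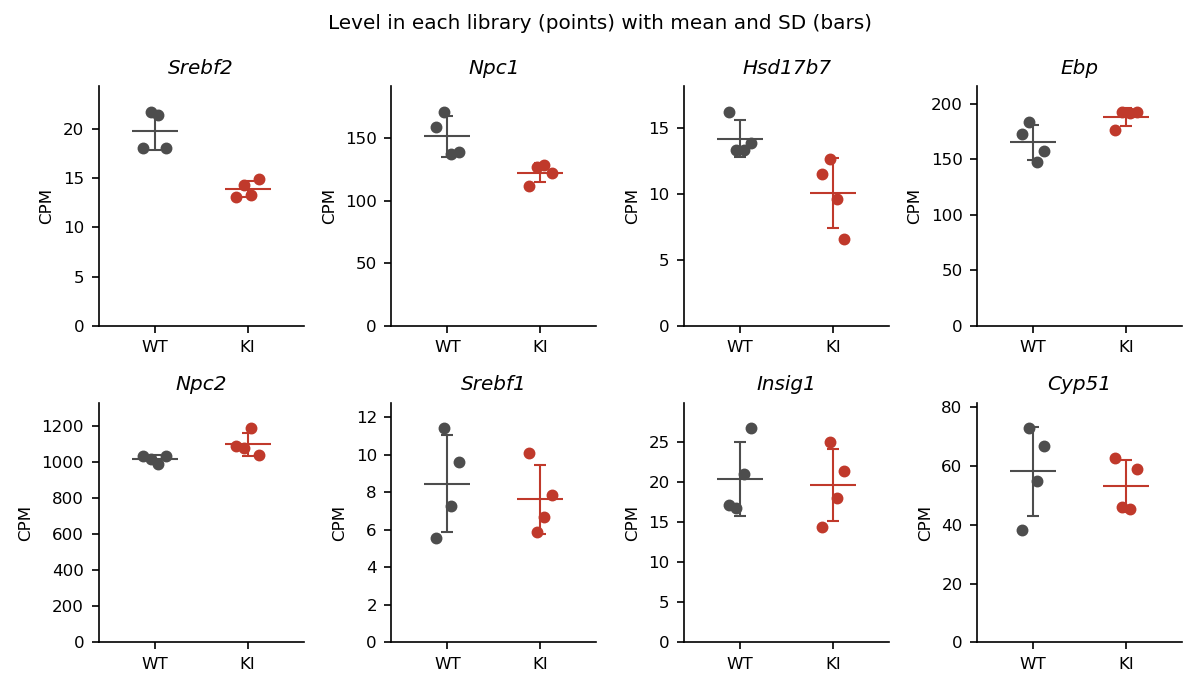
Level in CPM (y axes from 0) of 8 genes in each WT and KI library; points are libraries, and bars the mean and SD of 4. Srebf2, Npc1 and Hsd17b7 have all KI points below all WT points and Npc2 has all above, while Ebp, Srebf1, Insig1 and Cyp51 overlap.

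Among the other control genes the groups overlapped. Srebf1 was at 5.55 CPM in WT 503, 11.4 in WT 504, 7.23 in WT 506 and 9.62 in WT 527, and at 10.1 in KI 513, 5.86 in KI 526, 6.68 in KI 528 and 7.83 in KI 549. Each group held low and high libraries, and the Srebf1 log2 fold change was −0.15 (SE 0.268, edgeR adjusted p = 0.950). Insig1, the anchor that is itself an SREBP target and is often read as a gauge of SREBP activity, was at 17.2, 16.8, 21.1 and 26.8 CPM in WT 503, 504, 506 and 527, and at 14.46, 25, 18.07 and 21.38 in KI 513, 526, 528 and 549. The groups covered much the same range, and the log2 fold change of Insig1 was −0.05 (95% interval −0.51 to 0.41, SE 0.207). Insig2, the second anchor, was the control gene with the highest level per length. It was at 115, 123, 129 and 122 CPM in the WT libraries in the same order, and at 118, 117, 100.1 and 136 in the KI libraries. The KI range enclosed the WT range, with a log2 fold change of −0.05 (95% interval −0.26 to 0.15). Scap, the escort that carries the SREBPs to the Golgi, was at 16.0 ± 1.81 CPM in WT against 14.2 ± 3.98 in KI (SD, n = 4 each; log2 fold change −0.17).

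Promoters are shown for Srebf2 and for 2 genes whose groups did not overlap, Hsd17b7 and Npc2, with Ebp, the enzyme with the highest level per length. Hmgcs1 and Stard3 are added as the 2 genes with a window that holds a sterol regulatory element by its core letters. The windows run up to 250 bases before a RefSeq start (GRCm38.p6), were cut where the gene model of the same gene begins, and are written 5′ to 3′ on the strand of the gene. Capitals mark the motifs searched, on either strand: TCACNCCAC (sterol regulatory element core), TCACCCCA (its first letters, which overlap the core), CCAAT (bound by NF-Y, a partner of the SREBPs), GGGCGG (GC box) and CACGTG (E-box).
Srebf2 (chr15:82147019-82147180, plus strand): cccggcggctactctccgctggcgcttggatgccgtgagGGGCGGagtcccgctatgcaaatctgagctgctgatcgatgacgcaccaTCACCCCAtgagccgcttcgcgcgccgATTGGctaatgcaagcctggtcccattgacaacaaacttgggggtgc
Hmgcs1 (chr13:119690101-119690350, plus strand): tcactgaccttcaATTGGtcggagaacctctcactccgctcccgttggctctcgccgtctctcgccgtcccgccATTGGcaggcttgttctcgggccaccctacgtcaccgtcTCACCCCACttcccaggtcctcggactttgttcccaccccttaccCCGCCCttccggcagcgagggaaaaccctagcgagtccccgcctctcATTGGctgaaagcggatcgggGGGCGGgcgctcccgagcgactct
Stard3 (chr11:98358118-98358367, plus strand): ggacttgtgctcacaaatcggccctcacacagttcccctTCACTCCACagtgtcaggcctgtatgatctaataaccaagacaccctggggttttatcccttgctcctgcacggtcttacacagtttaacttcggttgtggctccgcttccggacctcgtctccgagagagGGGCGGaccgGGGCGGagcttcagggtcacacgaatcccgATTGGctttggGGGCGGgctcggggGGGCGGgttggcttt
Hsd17b7 (chr1:169969242-169969455, minus strand): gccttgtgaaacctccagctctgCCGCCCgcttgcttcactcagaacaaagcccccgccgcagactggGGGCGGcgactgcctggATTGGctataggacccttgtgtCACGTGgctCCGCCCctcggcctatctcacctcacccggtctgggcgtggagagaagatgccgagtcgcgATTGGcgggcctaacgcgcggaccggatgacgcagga
Ebp (chrX:8193513-8193762, minus strand): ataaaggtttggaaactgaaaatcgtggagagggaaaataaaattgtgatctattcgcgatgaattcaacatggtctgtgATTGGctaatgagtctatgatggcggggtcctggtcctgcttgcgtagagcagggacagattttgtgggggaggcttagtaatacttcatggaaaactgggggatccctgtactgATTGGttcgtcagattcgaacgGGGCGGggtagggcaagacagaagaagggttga
Npc2 (chr12:84773153-84773362, minus strand): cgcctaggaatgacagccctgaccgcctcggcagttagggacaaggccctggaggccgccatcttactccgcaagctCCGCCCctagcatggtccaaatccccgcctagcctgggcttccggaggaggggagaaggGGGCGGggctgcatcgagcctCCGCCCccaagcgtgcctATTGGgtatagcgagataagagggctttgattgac

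RefSeq windows were found for 26 of the 31 genes, 35 windows in all, out of 32851 in the table. For 28 of the 35, the bases just after the start occur somewhere in a transcript of the same gene in the annotation used here. Of the windows printed above, only that of Hmgcs1 was not among the 28. The core TCACNCCAC was in the windows of Hmgcs1, at positions −137 to −129 from the start, and Stard3, at −211 to −203, and in 1.05% of all windows. The shorter TCACCCCA, searched after the letters had been read, was in the windows of Srebf2, at −162 to −155, and Hmgcs1, at −137 to −130, and in 1.34% of all windows. CCAAT was in 23 of the 35 windows (33.8% of all windows), GGGCGG in 25 (32.7%) and CACGTG in 5, those of Scap, Insig1, Hsd17b7, Sc5d and Dhcr7 (6.02%). The LXR element known as DR4 (a direct repeat with a spacer) was in 0 of the 35, and in 0.0152% of all windows. A match describes letters in these windows and says nothing of binding in these cells.

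The early enzymes carry acetyl-CoA to mevalonate and on to isoprenoid pyrophosphates. Hmgcs1, which makes HMG-CoA, was at 60.2 ± 6.90 CPM in WT against 56.5 ± 9.97 in KI (SD, n = 4 each; log2 fold change −0.09). Acat2, a cytosolic thiolase, was at 55.6 ± 7.37 and 56.8 ± 9.23 CPM (0.03), with KI 549 at 42.9 beside 61.0 to 61.8 in the other KI libraries. The mevalonate kinase Mvk had the lowest log2 fold change of the 31, −0.69 (95% interval −1.43 to 0.04, SE 0.332), at 3.66 ± 1.14 CPM in WT and 2.26 ± 0.567 in KI. Its groups overlapped and its unadjusted p of 0.0629 from the edgeR quasi-likelihood test missed 0.05. The next 2 enzymes, Pmvk and Mvd, had log2 fold changes of 0.17 and −0.15.

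Idi1, which isomerises isopentenyl pyrophosphate, was at 4.69, 5.22, 3.99 and 5.65 CPM in WT 503, 504, 506 and 527, and at 5.18, 4.80, 5.19 and 3.43 in KI 513, 526, 528 and 549 (log2 fold change −0.07). Fdps, the farnesyl pyrophosphate synthase, was at 1.63, 2.83, 3.04 and 1.88 CPM in WT and at 3.26, 4.48, 1.997 and 3.04 in KI, in the same order. Both overlapped; Fdps had the highest log2 fold change of the enzymes, 0.45, with a wide 95% interval of −0.33 to 1.22 at its low count. It was also the enzyme with the lowest level per length.

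Squalene is made by Fdft1, oxidised by Sqle and cyclised to lanosterol by Lss. Fdft1 was at 18.9, 20.4, 20.3 and 24.8 CPM in WT 503, 504, 506 and 527, and at 22.2, 18.4, 21.5 and 18.95 in KI 513, 526, 528 and 549 (log2 fold change −0.06). Its exons share 774 bases with Ctsb on the opposite strand, a far more abundant gene, and the counting used no strand, so the level of Fdft1 is uncertain. Sqle, a rate-limiting step, was at 22.8, 27.8, 23.9 and 28.6 CPM in WT and at 21.3, 26.9, 16.8 and 26.2 in KI, with KI 528 lowest (log2 fold change −0.18, 95% interval −0.55 to 0.20). Lss was at 10.6 ± 2.39 CPM in WT against 10.4 ± 3.35 in KI (SD, n = 4 each; log2 fold change −0.02).

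Lanosterol is trimmed to cholesterol by the remaining enzymes. Cyp51, the lanosterol demethylase, was at 38.2, 72.8, 54.9 and 66.6 CPM in WT 503, 504, 506 and 527, and at 62.8, 46.0, 45.3 and 58.9 in KI 513, 526, 528 and 549. The WT libraries alone spanned the whole KI range, and the log2 fold change was −0.13 (SE 0.194). Nsdhl was at 35.3, 35.2, 36.5 and 37.2 CPM in WT and at 45.3, 34.2, 35.7 and 29.2 in KI. Its log2 fold change of −0.00 came with a KI spread of 6.74 CPM beside 0.983 in WT (SD, n = 4 each). Msmo1, the sterol methyl oxidase, had log2 fold change −0.04 and the 95% interval −0.22 to 0.15. The reductases Tm7sf2 and Dhcr7 had −0.37 and −0.23, and the desaturase Sc5d −0.04, all with overlapping groups.

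Hsd17b7 (chr1:169949535-169969241, minus strand), the keto-reductase that works with Nsdhl in demethylation, was at 16.3 CPM in WT 503, 13.4 in WT 504, 13.4 in WT 506 and 13.9 in WT 527. It was at 11.5 in KI 513, 12.7 in KI 526, 9.63 in KI 528 and 6.57 in KI 549. All KI libraries lay below all WT libraries, the nearest pair being KI 526 and WT 504. The log2 fold change was −0.50 (95% interval −0.96 to −0.03, SE 0.211), with an edgeR quasi-likelihood p of 0.0403 and an adjusted p of 0.620.

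Ebp (chrX:8185329-8193512, minus strand), the sterol isomerase, was at 173, 183, 147 and 158 CPM in WT 503, 504, 506 and 527, and at 176, 193, 192 and 193 in KI 513, 526, 528 and 549. The KI libraries were at the top, with KI 513 between WT 503 and WT 504, so the groups overlapped. The log2 fold change was 0.19 (95% interval 0.01 to 0.36, SE 0.0787), with an edgeR quasi-likelihood p of 0.0376 and an adjusted p of 0.614. Ebp and Hsd17b7 were the 2 of 18 enzymes with an unadjusted p under 0.05, in opposite directions. Of the 18 enzymes, 14 had log2 fold changes below 0 and 4 above, with a median of −0.06. The 95% intervals of 14 of the 18 lay within a 2-fold difference either way and those of 10 within a 1.5-fold difference. The intervals of Mvk, Mvd, Idi1, Sqle, Lss, Cyp51, Tm7sf2, Hsd17b7 and Dhcr7 included the log2 fold change of Srebf2, −0.51. For these enzymes a shift as large as that of Srebf2 was not excluded. The intervals of the other enzymes lay above −0.51, but this value is itself an estimate, with a 95% interval of −0.81 to −0.22. Of these enzymes only Pmvk (interval from −0.21) and Ebp (from 0.01) lay wholly above the interval of Srebf2. For the rest, a shift within the interval of Srebf2 was not excluded either.

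**Figure D2:**
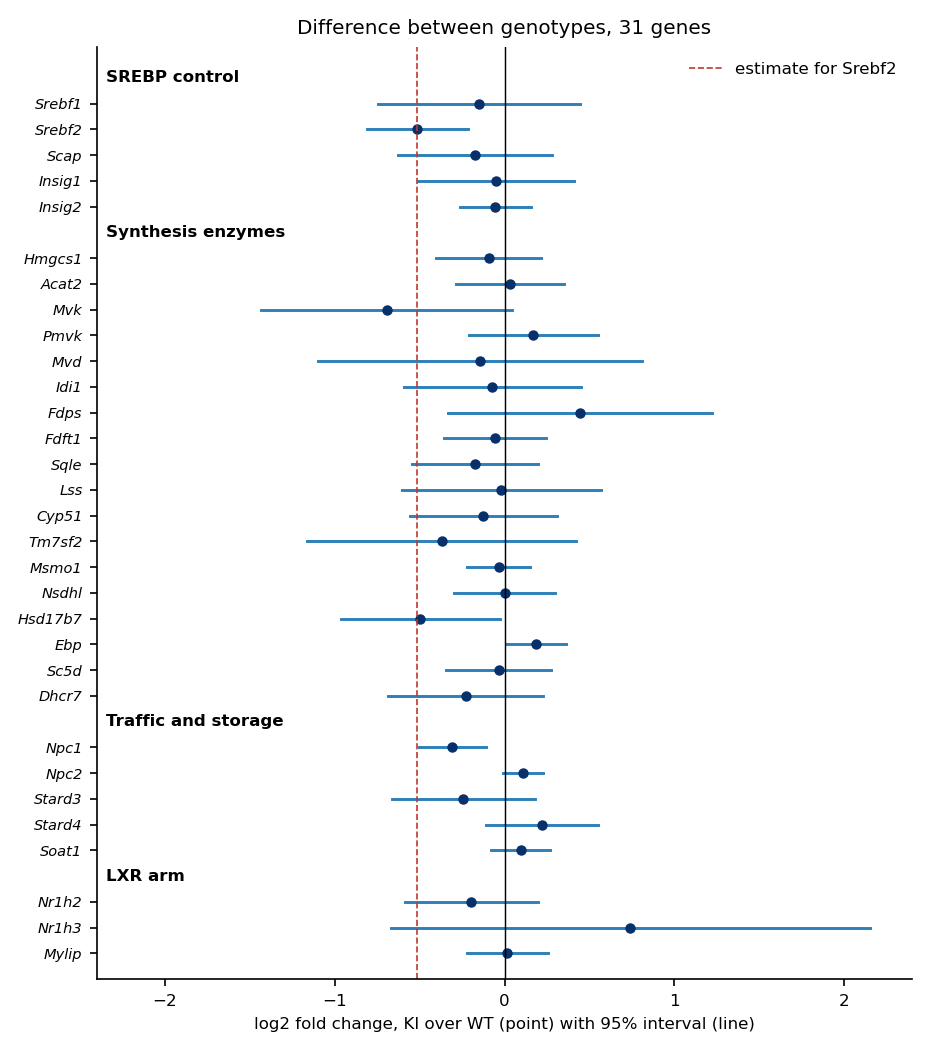
Log2 fold change of KI over WT (x axis) with its 95% interval from edgeR for each of the 31 genes, grouped by role. Srebf2, Npc1 and Hsd17b7 lie below 0 and Ebp above with intervals that leave out 0, and none of the 31 passed an adjusted p of 0.05.

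The NPC proteins hand cholesterol across the lysosomal membrane. Npc1, the membrane transporter, was at 159 CPM in WT 503, 171 in WT 504, 138 in WT 506 and 139 in WT 527, and at 112 in KI 513, 127 in KI 526, 128 in KI 528 and 123 in KI 549. The groups did not overlap. The log2 fold change was −0.31 (95% interval −0.51 to −0.11, SE 0.0888), with an edgeR quasi-likelihood p of 0.00587 and an adjusted p of 0.521, and an adjusted p of 0.0811 with DESeq2.

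Npc2 (chr12), the soluble protein that binds cholesterol in the lysosome and passes it to NPC1, was the most abundant of the 31 per length. It was at 1035 CPM in WT 503, 1017 in WT 504, 989.5 in WT 506 and 1034 in WT 527, and at 1089 in KI 513, 1078 in KI 526, 1190 in KI 528 and 1040 in KI 549. Every KI library lay above every WT library, KI 549 by a narrow margin. The log2 fold change was 0.11 (95% interval −0.01 to 0.23, SE 0.0537), with an edgeR quasi-likelihood p of 0.0683 and an adjusted p of 0.682. The 2 partners thus stood on opposite sides of 0, each with groups that did not overlap, and neither passed the adjusted test.

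The other 3 traffic genes overlapped between groups. Stard3, a late endosomal tether that transfers sterol, was at 90.2 ± 5.58 CPM in WT against 76.2 ± 24.6 in KI (SD, n = 4 each; log2 fold change −0.24). Its KI libraries ran from 54.5 to 110 CPM, around the WT range of 86.4 to 98.4. Stard4, a cytosolic sterol carrier, had a log2 fold change of 0.22 (95% interval −0.11 to 0.55). Soat1, which esterifies cholesterol for storage in droplets, was at 404 ± 27.6 CPM in WT and 431 ± 39.2 in KI (0.09, 95% interval −0.08 to 0.27).

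In the LXR arm, Nr1h2 (LXR beta) was at 58.4 ± 9.87 CPM in WT against 51.0 ± 11.8 in KI (SD, n = 4 each; log2 fold change −0.20). Nr1h3 (LXR alpha) was the gene with the lowest level per length, from 0.17 to 1.13 CPM in WT and from 0.87 to 1.58 in KI, and its log2 fold change of 0.74 had a 95% interval of −0.67 to 2.15. Mylip, the LXR-induced ubiquitin ligase that removes lipoprotein receptors, was at 294, 246, 305 and 260 CPM in WT 503, 504, 506 and 527, and at 241, 257, 286 and 332 in KI 513, 526, 528 and 549. The KI range enclosed the WT range, and the log2 fold change was 0.02 (95% interval −0.22 to 0.25).

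Per length, in FPKM (read counts scaled to exon length and library total) averaged over the 8 libraries, the 31 genes spanned from 202 for Npc2 to 0.398 for Nr1h3. Npc2, Mylip (91.1), Ebp (83.2), Soat1 (43.4) and Insig2 (36.5) led. Among the enzymes the order began with Ebp, Msmo1 (32.7) and Acat2 (23.8), and ended with Mvk (1.19), Lss (0.989) and Fdps (0.691). Both SREBP genes were in the lower part, Srebf2 at 2.41 and Srebf1 at 1.47, well under Insig2. Of the 2 LXR genes Nr1h2, at 17.2 FPKM, was far above Nr1h3. Exons of 11 of the 31 overlap those of another gene, among them Cyp51 with Akap9, Npc1 with Rmc1, Srebf1 with Rai1 and Tm7sf2 with Vps51, and without strand their reads cannot be told apart.

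**Figure D3:**
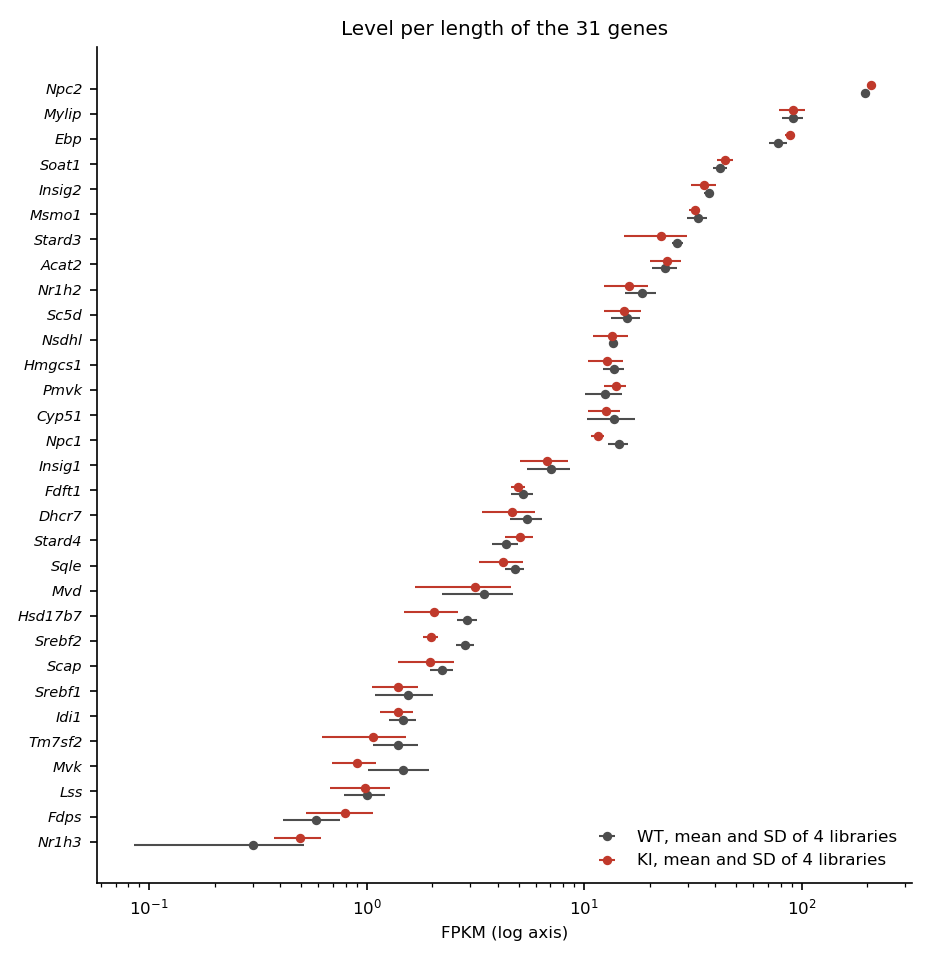
Deposited FPKM (log x axis) of the 31 genes in WT and KI, as mean and SD of 4 libraries, in order of the mean over all 8. Npc2 is highest at 202 and Nr1h3 lowest at 0.398, and the WT and KI points of most genes lie close together.

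To ask whether the enzymes followed Srebf2, their levels were set against it first between the groups and then within them. Between the groups, the log2 ratio of an enzyme to Srebf2 was higher on average in KI for 16 of the 18, the exceptions being Mvk and Hsd17b7. A gene that fell less than Srebf2 has a higher ratio in KI, so this count largely restates the fold changes. The same share over all genes was not counted. Pmvk, Fdps, Msmo1 and Ebp had ratios that did not overlap, higher in KI, as did 32.3% of all genes, since Srebf2 is the denominator of every ratio. For Ebp the log2 ratio was 3.06 ± 0.199 in WT against 3.76 ± 0.0642 in KI (SD, n = 4 each). For Hsd17b7 it was −0.48 ± 0.260 and −0.50 ± 0.472, which differ by less than either SD. The count of 4 of 18 was no larger a share than that of all genes.

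Within the groups, each library's deviation from its group mean was compared with that of Srebf2. Over the 18 enzymes, Pearson's r of these deviations had a median of 0.06, with 11 above 0, beside a median of −0.00 over all genes, of which 49.8% were above 0. The values ran from −0.58 to 0.71. They were highest for Fdps (0.71), Sqle (0.39) and Cyp51 (0.36), and lowest for Idi1 (−0.58), Fdft1 (−0.49) and Nsdhl (−0.49). These values and their order shifted when 1 library was left out. Cyp51 ran from −0.06 without WT 503 to 0.64 without WT 527, Fdft1 from −0.95 without WT 503 to −0.22 without WT 527, and Sqle from 0.26 without KI 549 to 0.65 without WT 527. Fdps ran from 0.62 to 0.79, Idi1 from −0.83 to −0.45 and Nsdhl from −0.61 to −0.31. Of these genes, named as the highest and lowest, only Cyp51 changed sign. For Hsd17b7, whose mean ratio to Srebf2 was nearly equal in both groups, r of the deviations over all 8 libraries was −0.47. Leaving out 1 library moved the median between −0.13 (without WT 503) and 0.16 (without WT 527), so it had no steady sign. Each r rests on 8 libraries with deviations that share a group mean, and it is given as a description with no p. Srebf2 itself ranged only from 18.1 to 21.7 CPM in WT and from 13.1 to 14.9 in KI, which left little variation to follow. Taken in 1 genotype at a time, r had opposite signs for some enzymes, such as Hmgcs1 (−0.59 in WT and 0.89 in KI). For others the sign was the same, such as Fdps (0.97 and 0.40).

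**Figure D4:**
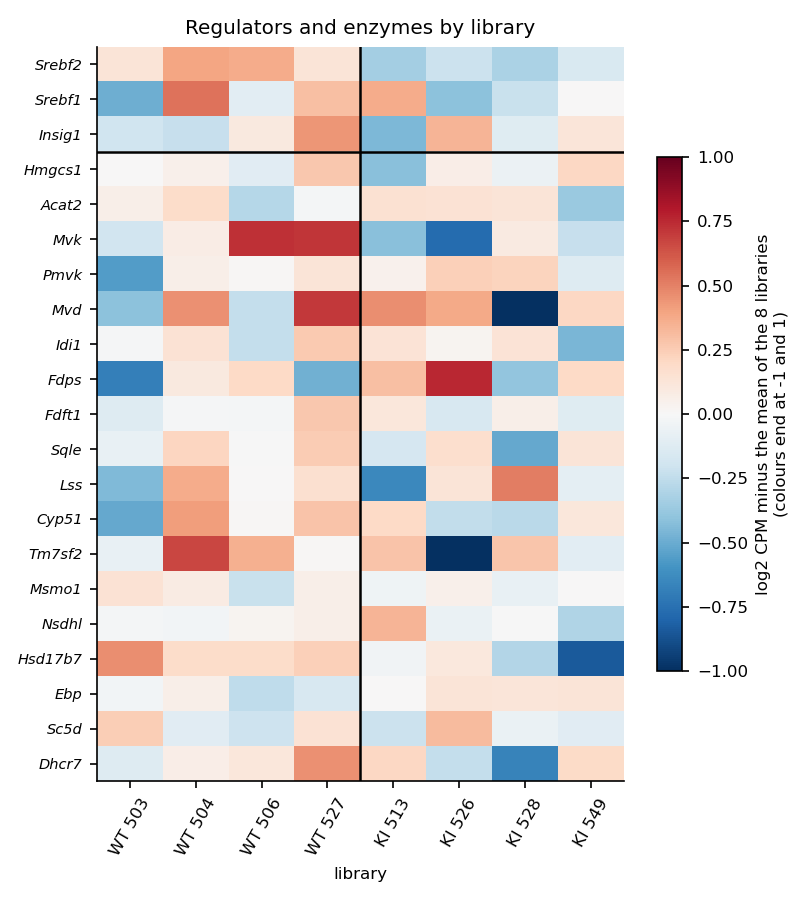
Log2 CPM of Srebf2, Srebf1, Insig1 and the 18 enzymes in each library (columns), as the difference from the mean of the 8 libraries (colour, cut at −1 and 1). Srebf2 is above its mean in the 4 WT libraries and below it in the 4 KI libraries, and no enzyme but Hsd17b7 had groups that did not overlap.

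Set against Srebf1, whose groups overlapped, over the 8 libraries, r of the 18 enzymes had a median of 0.30 with 13 above 0, beside a median of −0.00 over all genes. Without WT 503 and WT 504, the libraries farthest from the median of Srebf1, the median r of the enzymes was 0.13, and without WT 504 alone it was 0.18. Cyp51 was the only enzyme with an exact permutation p under 0.05 for this r, where 2.53% of all genes reached that with r above 0. Its Pearson r was 0.96 (2-sided exact permutation p = 0.000496, Benjamini-Hochberg adjusted over 17290 genes 0.613) and its Spearman's rho 0.95 (exact permutation p = 0.00114, adjusted 0.858). Without the 2 libraries r was 0.92, and with the GC trend removed 0.88. Both genes were lowest in WT 503 and highest in WT 504, and no gene of the 17290 passed adjustment, the smallest adjusted p being 0.375. With Insig1, the deviations of the enzymes had a median r of 0.12 and 10 of 18 above 0, the highest being Hmgcs1 at 0.75.

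Genes next to the pathway were read from lists that were chosen, like the 31 genes, with earlier results of these data known. Of 12 genes of SREBP processing and turnover, 5 had log2 fold changes above 0 and 7 below (median −0.04). Rnf145, a ubiquitin ligase that acts on SCAP, was at 73.8 ± 8.12 CPM in WT against 50.8 ± 5.78 in KI (SD, n = 4 each; log2 fold change −0.54, DESeq2 adjusted p = 0.00346, edgeR adjusted p = 0.507), with groups that did not overlap. Mbtps1, the first protease that cuts the SREBPs, was at 50.6 ± 5.02 and 38.0 ± 8.38 CPM, also without overlap (−0.41, edgeR adjusted p = 0.598).

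Of 16 fatty acid genes that SREBP1 is known to drive, 15 had log2 fold changes below 0 and 1 above, with a median of −0.34 that was −0.27 with the GC trend removed and −0.17 on the log2(FPKM + 1) scale. Over all genes tested, 49.9% were below 0. None of the 16 passed the edgeR adjustment, and 4 had an unadjusted p under 0.05, as had 7.79% of all genes. Elovl5, a fatty acid elongase, was at 101 ± 9.85 CPM in WT against 74.5 ± 10.3 in KI (SD, n = 4 each; −0.44, DESeq2 adjusted p = 0.0378), without overlap. Acly, which makes cytosolic acetyl-CoA, was at 156 ± 14.8 and 121 ± 24.1 CPM (−0.37, DESeq2 adjusted p = 0.273). Srebf1 itself was at −0.15.

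The isoprenoid branch, which uses farnesyl pyrophosphate before the sterol steps, had 6 of 12 genes above 0 and 6 below (median 0.01). Rabggta, a subunit of the enzyme that prenylates Rab proteins, was at 32.1 ± 5.74 CPM in WT against 21.1 ± 2.75 in KI (SD, n = 4 each; −0.61, DESeq2 adjusted p = 0.0241). Fntb, the farnesyltransferase beta subunit, was at 8.64 ± 1.62 and 5.54 ± 0.271 CPM (−0.64, DESeq2 adjusted p = 0.0299). Both had groups without overlap, and both missed the edgeR adjustment. Of 6 oxysterol enzymes 4 were tested, 2 on each side of 0, with Ch25h at 0.41 and Cyp27a1 at −0.09, both overlapping. Of 15 other sterol transfer genes 14 were tested, 10 above 0 and 4 below. Gramd1b carries plasma membrane cholesterol to the endoplasmic reticulum. It was at 3.01 ± 0.257 CPM in WT against 5.12 ± 1.19 in KI (SD, n = 4 each), without overlap. Its log2 fold change was 0.77 (DESeq2 adjusted p = 0.0402, edgeR adjusted p = 0.554), and Soat2 had −0.90 with overlap. Of 11 LXR partners and targets 5 were above 0 and 6 below. Abcg1, a sterol exporter, had a log2 fold change of 0.32 (edgeR adjusted p = 0.600). Apoe, an apolipoprotein that accepts the sterol, had one of 0.35 (edgeR adjusted p = 0.604). Both had overlapping groups and an unadjusted edgeR p under 0.05.

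**Figure D5:**
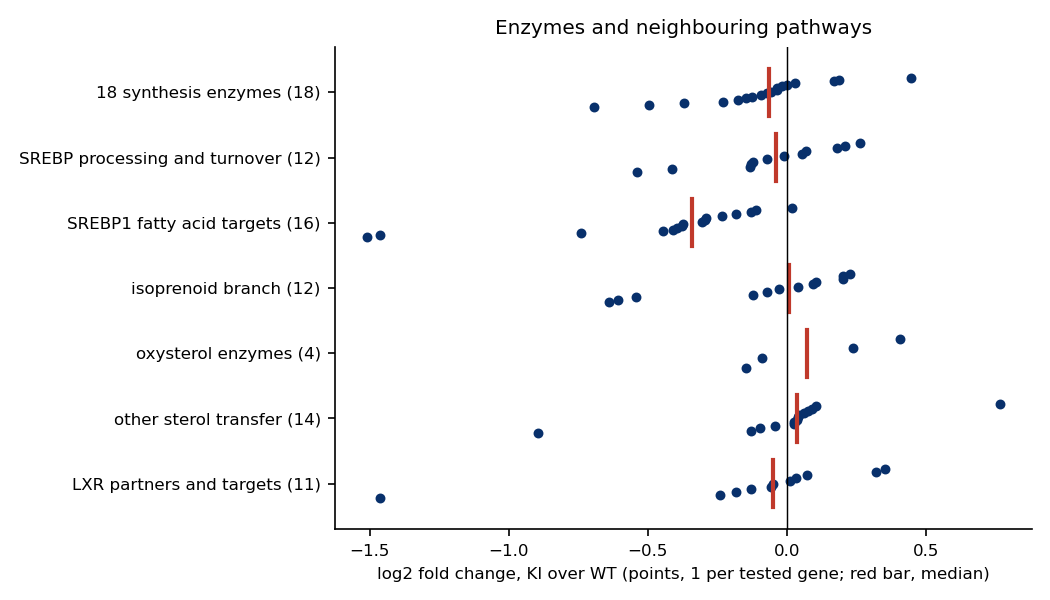
Log2 fold change of KI over WT (x axis) of each tested gene (points, shifted up and down only to separate them) in the 18 enzymes and 6 neighbouring lists, with the median as a red bar. The fatty acid genes have a median of −0.34 and the other lists medians between −0.06 and 0.07.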

How the data were processed

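The submitters' processing notes name mm10 and, with no step tied to a tool, R 3.6.0, limma, edgeR, featureCounts 2.0.3, SAMtools 1.9 and STAR 2.7.5c. The counts, deposited by the authors, are whole reads over exons summed by gene identifier; per the file headers, featureCounts was run on paired input, with primary alignments only, no chimeric pairs and no strand option, and both reads of a pair may count (68.9 to 70.8% of low counts were even). The FPKM values deposited by the authors follow the count, the library total and the exon length less about 188 bases. The normalized signal table, also deposited, holds counts divided by 1 factor per library, and gave back whole reads for 100% of values within 0.01; it was used for that check only. Which annotation version was used is not given in the sources. The count table has 8 columns that match no label and were not used.

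Of 54532 genes, 54409 were paired with a GENCODE symbol of the same build; 29 of the 31 genes had the same start and end in both. The deposited counts were tested with edgeR 4.0.16 in R 4.3.3: TMM, filterByExpr (minimum count 10, minimum total 15), the robust quasi-likelihood test with group as the only term, Benjamini-Hochberg adjustment over all 17291 genes and a threshold of 0.05. Levels are CPM scaled by TMM, and fold changes KI over WT. Intervals are 95% intervals. Counting floors cover counting error only, since the reads carry no molecular identifiers. Per the labels every library came from a separate mouse; they name no batch.

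Alternatives were RLE and upper quartile scaling, no filter, DESeq2 1.42.0, the likelihood ratio test, limma 3.58.1 (voom, and log2(FPKM + 1) with a minimum mean of 0.1), removal of each library's GC trend, a prior count of 0.5 in place of 2, and leaving out each library. The tests were checked on simulated data. Correlations used log2 CPM and all 40320 orders of the libraries. A pooled r with Srebf2 was planned but is not given, because Srebf2 splits the libraries into 2 separate groups; deviations from group means took its place, also in choosing genes to name. Values in every library are given for Srebf1, Srebf2, Insig1, the 4 genes with the smallest p, the 3 enzymes with the highest and the 3 with the lowest r with Srebf2, and the gene of each role with the highest FPKM, and of each neighbouring list the 2 genes with the smallest p are named; Acat2, Csf1r and the promoters shown were singled out after their values or letters were seen. The genes and lists were chosen with earlier results of these data known.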

Additional observations from a re-analysis of the deposited data

Results flagged for a closer look

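Among 62 groups of 4 libraries (31 genes in each genotype), 2 held a library set apart from the other 3 by most of the range of its group; chance gives about 1 in 20 such groups. Acat2 was at 42.9 CPM in KI 549, below the 61.0 to 61.8 CPM of the other KI libraries. Ebp was at 176 CPM in KI 513, below the 192 to 193 CPM of the other KI libraries.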

How the results depend on the processing

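No paired analysis was possible because the mouse numbers differ between the groups. Of 527 values of the 31 genes under the alternatives, 487 kept their direction and side of the threshold, 39 changed sign and 1 gained a call (Srebf2 with DESeq2). The count of genes called was 0 with edgeR's quasi-likelihood test and 250 with DESeq2, 42 with the likelihood ratio test, 1 with limma on FPKM and 67 with DESeq2 after removal of the GC trend, which was added after the data had been seen; the count among the 31 was 1 with DESeq2. The cause was not tested. Sign changes away from left-out libraries were all close to 0: Nsdhl at 0.0014 with RLE and 0.00088 with upper quartile scaling, Mylip at −0.00024 on FPKM, and, with the GC trend removed, Fdft1 at 0.012 with edgeR and 0.013 with DESeq2 and Lss at 0.017 with both.

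Leaving out 1 library turned the sign of 14 genes, none of them called, with log2 fold changes from −0.11 to 0.0063 for Msmo1, −0.17 to 0.044 for Sc5d, −0.32 to 0.028 for Srebf1, −0.22 to 0.15 for Lss, −0.28 to 0.00023 for Cyp51, −0.079 to 0.077 for Mylip, −0.051 to 0.14 for Acat2, −0.13 to 0.089 for Nsdhl, −0.19 to 0.11 for Insig1, −0.31 to 0.15 for Mvd, −0.16 to 0.050 for Idi1, −0.11 to 0.032 for Fdft1, −0.18 to 0.013 for Hmgcs1 and −0.13 to 0.016 for Insig2. The median r of the enzymes with Srebf2 ran from −0.13 to 0.16, and with Srebf1 from 0.18 to 0.36; without the 2 libraries farthest from the median the latter was 0.13. With 4 libraries a group, 95% intervals of 26 of the 31 genes lay within a 2-fold difference and those of 17 within a 1.5-fold difference.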

Other observations

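Among the 18 enzymes, the deviations of the libraries from their group means gave r above 0 for 88 of 153 pairs, with a median of 0.04. The highest were Acat2 with Idi1 (0.88), Mvd with Sqle (0.87) and Mvd with Dhcr7 (0.84). The lowest were Tm7sf2 with Sc5d (−0.87) and Hmgcs1 with Nsdhl (−0.80). Several of these genes have low counts, the pairs share libraries, and no test was made of any pair.

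In the isoprenoid branch, Pggt1b, the beta subunit of the enzyme that adds geranylgeranyl groups, was at 83.4 ± 3.24 CPM in WT against 96.1 ± 4.29 in KI (SD, n = 4 each), without overlap (log2 fold change 0.20, DESeq2 adjusted p = 0.0642). Fnta, the alpha subunit that it shares with Fntb, was at 128 ± 18.8 and 87.9 ± 29.5 CPM (−0.54, DESeq2 adjusted p = 0.335), with overlap. Both were singled out after their values had been seen.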
